A study of Mus musculus with 12 samples.

Results

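The cytosolic ribosomal proteins were taken as the protein-coding genes whose symbol starts with Rpl or Rps and a digit, together with Rplp0, Rplp1, Rplp2 and Rpsa. Names with -ps, which mark pseudogenes, and the ribosomal S6 kinases (Rps6k) were left out. Of the 55401 genes in the count table, 86 met the name rule, and 84 of these were among the 14079 genes with a log2 CPM (counts scaled to library size) above 0 in at least 2 of the 12 libraries. Rpl10l and Rpl39l did not pass that filter. The 84 members comprised 31 proteins of the small (40S) subunit, 43 of the large (60S) subunit, the 3 proteins of the P stalk and 6 paralogs of a subunit protein. Rps19bp1, a nucleolar protein that binds Rps19 and is not a ribosomal subunit, also met the name rule.

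RNA was sequenced from Sp37A3 cells, a line of immature dendritic cells (DCs) derived from the spleen of C57BL/6 mice. CtrV cells carried an empty lentiviral CRISPR vector, and EKO cells had received a guide against Siglece, which encodes the inhibitory sialic acid receptor Siglec-E. The EKO line was a pool of selected single-cell clones, so differences between the lines can hold differences between clones. All cells grew with GM-CSF and M-CSF and were stimulated with LPS for 24 hours. In each line 3 cultures were pulsed with ovalbumin (OVA) and 3 were left unpulsed. Per the study's methods, the pulse came before LPS and the cells were washed in between. There were thus 4 groups of 3 libraries, and nothing states how separately the replicates were grown, so the p-values measure only the spread between these libraries. The question put to these genes was whether the mRNAs of the translation machinery differed between the lines and with OVA pulsing.

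Library totals lay between 27116201 and 39698572 counts. At this depth 3 counts correspond to 0.0785 to 0.110 CPM, far below every member. Siglece mRNA was not lower in the libraries labelled EKO: its log2 fold change was 0.31 ± 0.08 (SE) with OVA and 0.41 ± 0.08 without (edgeR adjusted p = 0.0106 and 0.00261). An mRNA level does not check a guide-made frameshift, and these libraries are called EKO-labelled here. All 15 DC markers passed the filter, with a summed level of 31467 to 35318 CPM. Of the markers of T cells, B cells, NK cells, fibroblasts, erythroid cells and neutrophils, Lck alone passed. Among 4 epithelial markers, Epcam and Cdh1 passed, and the list summed to 587 to 672 CPM in the CtrV libraries and 177 to 204 CPM in the EKO-labelled ones. Epcam and Cdh1 are also known from DCs. Ribosomal RNA rows held 0.235 to 0.442% of counts in CtrV libraries and 0.212 to 0.307% in EKO-labelled ones. The part of either in the results that follow was not tested.

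Each ribosome is built from the small subunit, which reads the mRNA, and the large subunit, which joins amino acids, and nearly all of their proteins are made in equal numbers. Their mRNAs are among the most abundant in growing cells. Most of them begin with a C followed by a run of pyrimidines, the 5′ terminal oligopyrimidine (TOP) motif, through which the kinase mTORC1 and the protein Larp1 set their translation and stability. In mammalian genomes, ribosomal protein mRNAs have also left many processed pseudogenes, intronless copies that can take up sequencing reads.

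The start regions were read from RefSeq promoter sequences (GRCm38.p6), which held 64 of the 84 members. A pyrimidine run of at least 5 bases was counted from any C within 10 bases of an annotated start. It was found in 38 of the 64 (59.4%), against 34.4% of all 27025 genes with a promoter sequence. Runs of at least 7 bases occurred in 45.3% of members and 14.1% of all genes. The windows below run from 10 bases before the start to 20 after it, written 5′ to 3′ on the strand of the gene. Capitals mark the run from its C nearest the start, so pyrimidines of a longer stretch can stand before them. They are shown for the members on which the comparisons turned (Rpsa, Rps19, Rps18, Rps16, Rps2), for stalk and signalling-linked proteins (Rplp0, Rplp2, Rps3, Rps6, Rpl38) and for the paralog Rpl22l1.
Rps18 (chr17:33955646-33955675, minus strand): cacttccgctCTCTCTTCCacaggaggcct
Rps19 (chr7:24884903-24884932, plus strand): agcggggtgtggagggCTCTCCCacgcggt
Rps2 (chr17:24720053-24720082, plus strand): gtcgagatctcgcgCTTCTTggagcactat
Rpsa (chr9:120127756-120127785, plus strand): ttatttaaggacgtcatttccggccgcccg
Rps16 (chr7:28350679-28350708, plus strand): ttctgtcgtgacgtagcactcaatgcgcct
Rplp0 (chr5:115559457-115559486, plus strand): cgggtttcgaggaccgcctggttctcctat
Rplp2 (chr7:141447641-141447670, plus strand): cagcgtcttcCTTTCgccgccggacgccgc
Rps3 (chr7:99483690-99483719, minus strand): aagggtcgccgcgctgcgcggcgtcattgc
Rps6 (chr4:86857348-86857377, minus strand): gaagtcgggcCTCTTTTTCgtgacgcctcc
Rpl38 (chr11:114668570-114668599, plus strand): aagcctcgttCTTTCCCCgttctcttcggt
Rpl22l1 (chr3:28805498-28805527, plus strand): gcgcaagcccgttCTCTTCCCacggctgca
In Rps18, Rps6, Rpl38 and Rplp2 a C of the run stood at the annotated start, but lower-case pyrimidines of the same stretch preceded it. The annotated base was therefore not the first of the stretch. Rpsa, Rps16, Rplp0 and Rps3 had no such run within 10 bases of their start. Rps19 had 3 annotated starts, of which the 1 shown had a run and the others had none. Of the other motifs searched in the whole 300 bases, CCGGAAG, the core bound by ETS factors, stood on either strand in 25 of the 64 members (39.1%) and in 9.93% of all genes. AAGATGGC, a YY1 core, was found on either strand in 6 members (9.38%) and in 3.19% of all genes. TATAAA on the gene's strand was found in 9.38% of members and 9.77% of all genes. A match describes these letters in an annotated window and is not a measured binding site or start.

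Ribosomal protein mRNAs were lower in the OVA-pulsed EKO-labelled cells than in OVA-pulsed CtrV cells, by a small and widely shared amount. The log2 fold change lay below 0 for 77 of the 84 members, against 49.9% of all genes tested. Its median was -0.12 over the members, a change of -7.91%, and 0.00 over all genes. With edgeR's quasi-likelihood test, 23 members (27.4%) fell at an adjusted p under 0.05 and 0 rose, against 21.9% of all genes called lower and 25.1% called higher. These are levels relative to the library, and less RNA per cell cannot be told apart from fewer cells that hold it. The share called lower was near that of all genes, while no member was called higher. DESeq2 called 21 members lower and limma voom 24, and both called 0 higher. In 51 members (60.7%) all 3 EKO-labelled libraries lay below all 3 CtrV libraries, against 25.9% of all genes. The count depended on single libraries and on the replicate block: it was 10 without CtrV replicate 1, 12 without CtrV replicate 2, 12 without EKO replicate 1, 10 without EKO replicate 3 and 11 without the block, all of them lower. In those fits 17.1 to 19.6% of all genes were called lower, a larger share than of the members. Without CtrV replicate 1 the member median was -0.08.

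Unpulsed cells showed the same direction. The log2 fold change was below 0 for 80 members, against 50% of all genes, with a median of -0.14 (a change of -8.94%) beside 0.00 for all genes. In edgeR's test 29 members (34.5%) fell and 1 rose, against 21.9% and 24.5% of all genes. The member that rose was Rpl7l1, a paralog of Rpl7 that works in the nucleolus, and this call was not kept in all alternative fits. Libraries of the lines did not overlap for 26 members that were lower (31%, against 22.9% of all genes). Without the unpulsed CtrV replicate 3 the member median was -0.09. Without CtrV replicate 1, 19 members were called, and in a fit of the 6 unpulsed libraries alone, 15, when 19.3% of all genes were called lower in the first of these fits and 4797 of 14079 genes were called in either direction in the second. Both comparisons called the same 20 members lower, and 9 were called lower only without OVA and 3 only with OVA. This overlap was not counted over all genes, and both comparisons share the same fit. It is therefore not read as a result about the members. The dependence of the difference on pulsing passed the adjusted threshold for 0 members in edgeR, DESeq2 and voom, and the unadjusted p was under 0.05 for 0 members in each, against 1.91% of all genes in edgeR. In 20 members (23.8%) all 6 EKO-labelled libraries lay below all 6 CtrV libraries, against 16.6% of all genes.

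**Figure D1:**
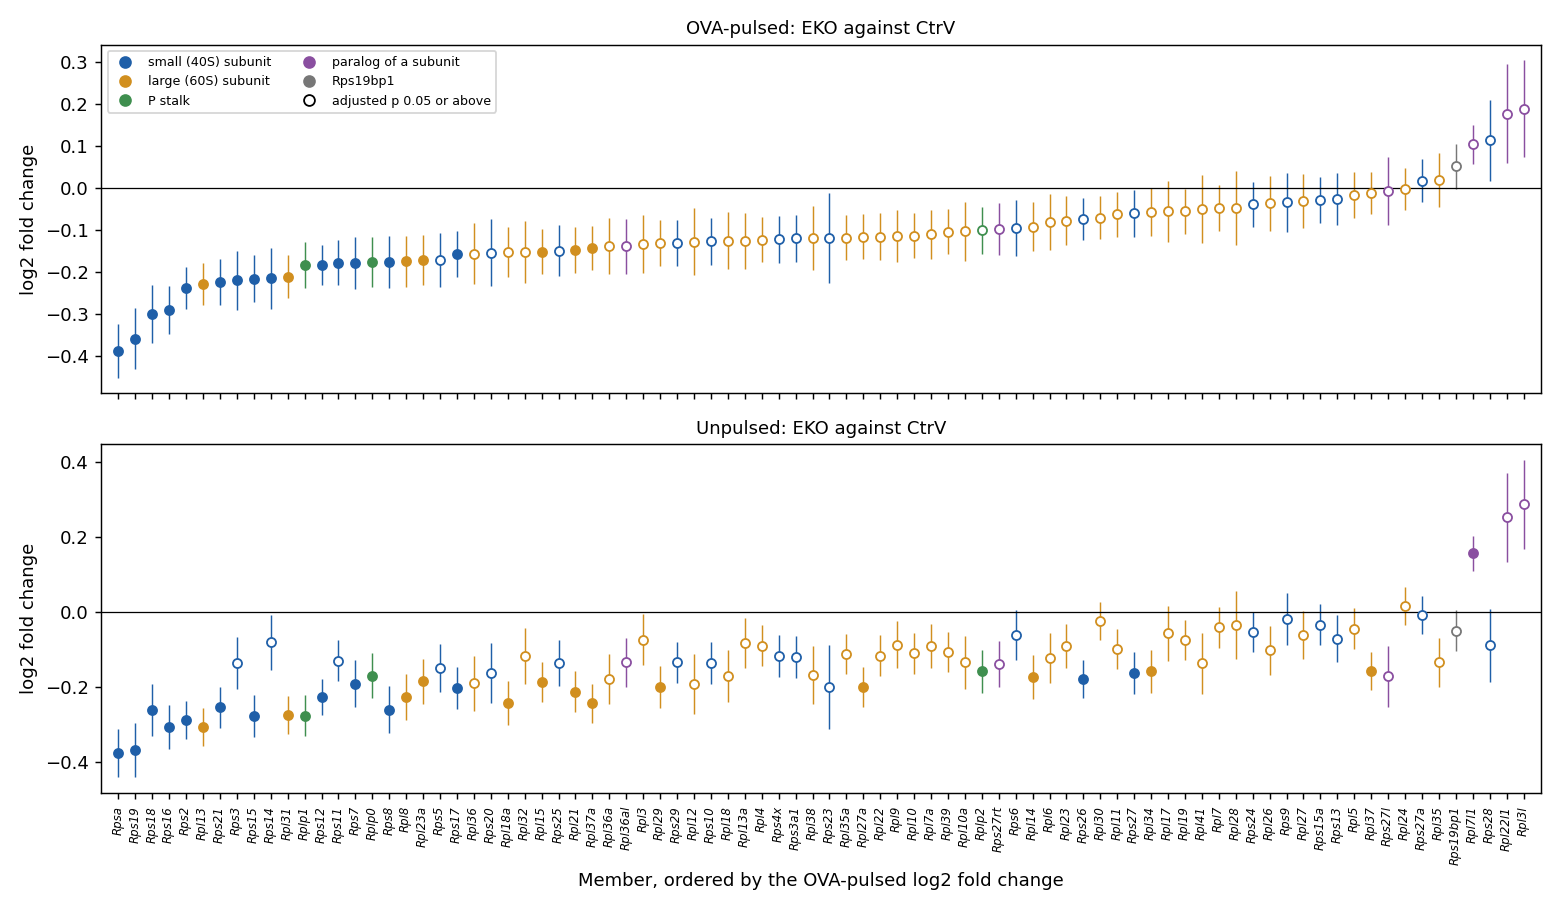
Log2 fold change of EKO-labelled against CtrV cells for the 84 members, OVA-pulsed above and unpulsed below, in the order of the OVA-pulsed values. Points are edgeR estimates with bars of 1 standard error, filled where the adjusted p was under 0.05 and coloured by subunit. Most points lie below 0, with Rpsa and Rps19 lowest in both panels and the paralogs Rpl3l, Rpl22l1 and Rpl7l1 above 0 in both.

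With OVA the 5 members with the lowest fold changes belonged to the small subunit, and without OVA Rpl13 stood among the lowest 5. Rpsa, the laminin receptor protein that sits on the small subunit near the mRNA exit, was measured at 520.3, 503 and 516 CPM in the OVA-pulsed CtrV libraries and at 377, 394 and 408 CPM in the EKO-labelled ones. Unpulsed libraries held 509, 496 and 580.1 CPM of Rpsa in CtrV and 369, 429.8 and 424 CPM in EKO-labelled cells. The groups did not overlap in either state. Rpsa fell by 0.39 ± 0.06 (SE) on the log2 scale with OVA and by 0.37 ± 0.06 without (adjusted p = 0.000569 and 0.000743). On the linear scale Rpsa fell by 23.5% and 22.9%.

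Rps19, a protein of the subunit's head that is needed to mature its ribosomal RNA and is mutated in Diamond-Blackfan anaemia, stood at 218, 212 and 225 CPM in OVA-pulsed CtrV libraries and at 163, 171 and 177 CPM in EKO-labelled ones. Without OVA its levels were 217, 204 and 248 CPM in CtrV and 151, 186 and 181 CPM in EKO-labelled libraries. All EKO-labelled values were below all CtrV values. The fall was 22.0% with OVA and 22.5% without (adjusted p = 0.00212 and 0.00193).

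Rps18 and Rps16 also belong to the head, where Rps18 touches the large subunit and Rps16 reaches towards the tRNA in the P site. With OVA, Rps18 was measured at 232, 225 and 219 CPM in CtrV and 176, 185 and 189 CPM in EKO-labelled libraries, and it fell by 0.30 ± 0.07 on the log2 scale (adjusted p = 0.00483). Rps16 was measured at 106, 105 and 108 CPM against 80.9, 85.2 and 96.1 CPM and fell by 0.29 ± 0.06 (adjusted p = 0.00199). Both genes were separated between the lines in every library pair. Without OVA they fell by 0.26 ± 0.07 and 0.31 ± 0.06 (adjusted p = 0.0105 and 0.00154).

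Rps2, which lines the mRNA entry channel and guards decoding accuracy, was at 197, 196 and 213 CPM in OVA-pulsed CtrV and 164, 173 and 177 CPM in EKO-labelled libraries. In the unpulsed state Rps2 was at 200.5, 193 and 227 CPM against 162, 169 and 178 CPM. The groups were again apart, and Rps2 fell by 0.24 ± 0.05 with OVA and 0.29 ± 0.05 without on the log2 scale (adjusted p = 0.00254 and 0.000810). Rpl13 was the large-subunit protein with the lowest fold change in both states, at 58.5, 58.6 and 66.9 CPM in unpulsed CtrV and 47.0, 47.6 and 54.3 CPM in EKO-labelled cells. It fell by 19.0% without OVA and 14.6% with OVA (adjusted p = 0.000657 and 0.00375). In the alternative fits the adjusted p of Rpl13 with OVA reached 0.0571.

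**Figure D2:**
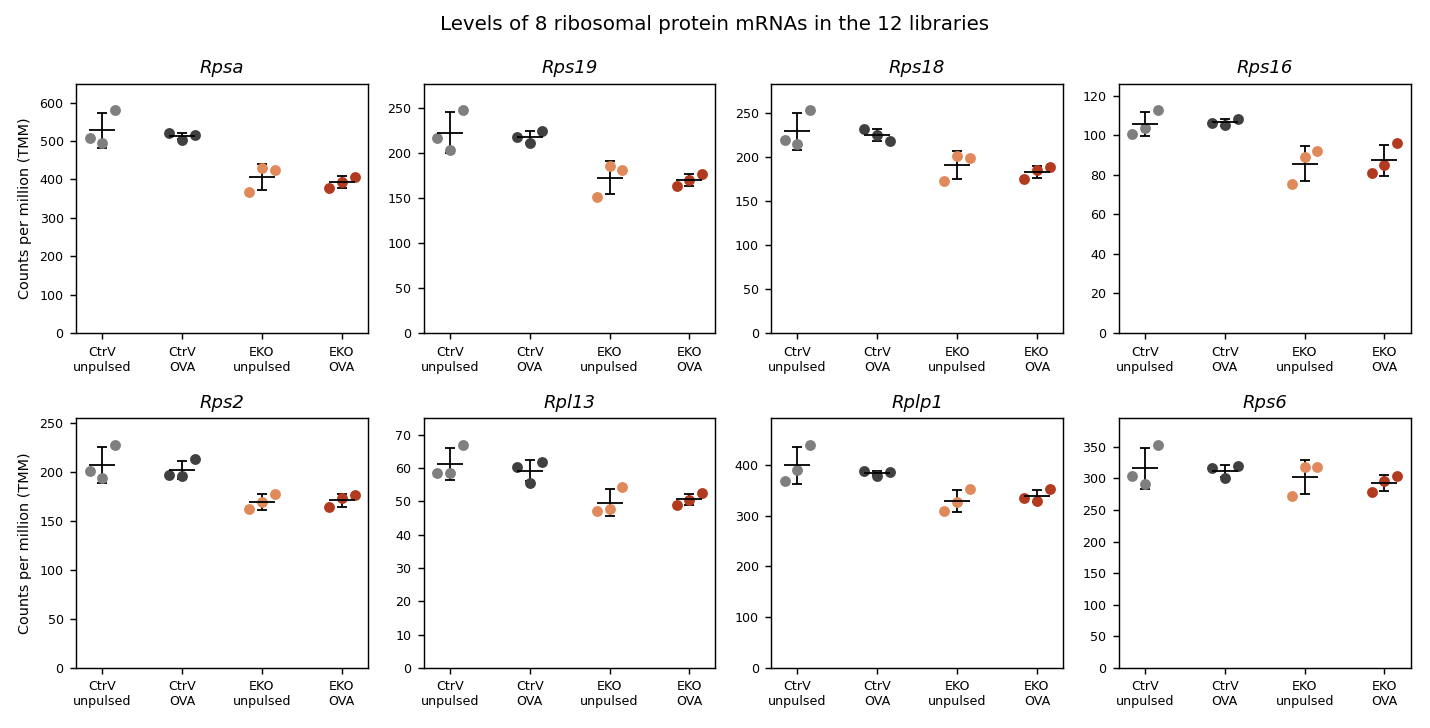
CPM of 8 members in the 12 libraries, scaled by trimmed mean of M-values (TMM) factors, with points for libraries in replicate order and a dash and bar for the mean and SD of 3. The EKO-labelled points of Rpsa, Rps19, Rps18, Rps16 and Rps2 lie below every CtrV point of the same pulsing state, whereas those of Rps6 overlap with CtrV.

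Taken by subunit, 14 of the 31 small-subunit proteins fell with OVA and 13 without, with median log2 fold changes of -0.15 and -0.15. Of the 43 large-subunit proteins outside the stalk, 7 fell with OVA and 13 without, with medians of -0.11 and -0.12. Of all genes, 21.9% were called lower in each state. The small-subunit counts lay above that share in both states. The large-subunit count lay below it with OVA and above it without. The difference between the subunits was not tested. The summed CPM of the small-subunit proteins over that of the large-subunit and stalk proteins was 0.778, 0.780 and 0.773 in the OVA-pulsed CtrV libraries and 0.749, 0.752 and 0.753 in the EKO-labelled ones. Unpulsed, the ratio was 0.773, 0.773 and 0.783 in CtrV and 0.759, 0.772 and 0.758 in EKO-labelled libraries. The ratio of the lines did not overlap in either state, and the unpulsed gap between the nearest libraries was narrow. As a score over the members it was given no test.

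The P stalk is the part of the large subunit that recruits elongation factors, and it is made of Rplp0 and copies of Rplp1 and Rplp2. Rplp1 was at 388, 379 and 386 CPM in OVA-pulsed CtrV and 335, 329 and 352 CPM in EKO-labelled libraries, and it fell by 12.0% (adjusted p = 0.0179). Without OVA Rplp1 was at 369, 390.4 and 439 CPM against 309, 328 and 352 CPM and fell by 17.4% (adjusted p = 0.00200). No EKO-labelled library reached a CtrV library. Rplp0 fell by 11.5% and 11.1% in the OVA-pulsed and unpulsed states (adjusted p = 0.0324 and 0.0385), and Rplp2 fell by 10.4% without OVA (adjusted p = 0.0397). With OVA the log2 fold change of Rplp2 was -0.10 ± 0.06 (adjusted p = 0.167). The stalk calls were not all kept in the alternative fits. There the largest adjusted p was 0.135 with OVA and 0.185 without for Rplp0. It was 0.0843 for Rplp1 with OVA and 0.158 for Rplp2 without.

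Several well-known members did not pass the threshold. Rps6, the substrate of S6 kinase, was at 316, 301 and 319 CPM in OVA-pulsed CtrV and 278, 296 and 303 CPM in EKO-labelled libraries, so the groups overlapped. Its log2 fold change was -0.10 ± 0.07 with OVA and -0.06 ± 0.07 without (adjusted p = 0.262 and 0.484). Rpl5 and Rpl11 join the 5S ribosomal RNA and can bind Mdm2 to stabilise p53. Rpl5 was at 153, 151 and 157 CPM against 143, 157 and 156 CPM with OVA, and its log2 fold change of -0.02 ± 0.05 was among the nearest to 0 (adjusted p = 0.827). The values for Rpl11 were -0.06 ± 0.05 with OVA and -0.10 ± 0.05 without (adjusted p = 0.360 and 0.158). The approximate 95% intervals, somewhat narrow for so few libraries, were -0.12 to 0.09 for Rpl5 and -0.23 to 0.04 for Rps6 with OVA. Both reach differences as large as the member median.

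Rps3, a head protein that also repairs DNA, fell by 14.1% with OVA (adjusted p = 0.0255), and its unpulsed log2 fold change was -0.14 ± 0.07 (adjusted p = 0.140). In the alternative fits the adjusted p of Rps3 with OVA reached 0.0992. Rpl10, which completes the large subunit in the cytosol, had log2 fold changes of -0.11 ± 0.05 in both states (adjusted p = 0.108 and 0.119). For Rpl38, known for its part in translating Hox mRNAs, they were -0.12 ± 0.08 with OVA and -0.17 ± 0.08 without (adjusted p = 0.220 and 0.0982). Rpl10 and Rpl38 thus lay near the member medians in both states, and Rps3 lay below them with OVA.

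The 6 paralogs had median log2 fold changes of 0.05 with OVA and 0.01 without. Rpl7l1 was at 158, 157 and 163 CPM in unpulsed CtrV and 183, 179.7 and 171 CPM in EKO-labelled libraries, with no overlap, and rose by 0.16 ± 0.05 on the log2 scale (adjusted p = 0.0176). In the alternative fits the unpulsed adjusted p of Rpl7l1 reached 0.150. With OVA the log2 fold change of Rpl7l1 was 0.10 ± 0.05 (adjusted p = 0.0870), from 160.0, 163 and 159 CPM to 178, 173 and 167 CPM. Its partner Rpl7 had values of -0.05 ± 0.06 with OVA and -0.04 ± 0.06 without (adjusted p = 0.505 and 0.575).

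Rpl22l1, which can take the place of Rpl22 in the ribosome and whose mRNA Rpl22 is known to bind, was measured at 41.1, 44.0 and 46.6 CPM in OVA-pulsed CtrV and 40.2, 57.7 and 52.5 CPM in EKO-labelled libraries. Unpulsed it was at 43.6, 41.1 and 56.5 CPM against 43.0, 64.6 and 62.0 CPM. EKO-labelled replicate 1 stood with the CtrV libraries, and replicates 2 and 3 stood above them in both states. Neither difference passed the test (log2 fold change 0.18 ± 0.12 and 0.25 ± 0.12, adjusted p = 0.240 and 0.106). Rpl22 itself was at -0.12 ± 0.05 in each state (adjusted p = 0.109 and 0.109). Rpl3l, a muscle paralog of Rpl3, was near 3 CPM and was not called, with values of 0.19 ± 0.12 and 0.29 ± 0.12 (adjusted p = 0.203 and 0.0684). Rpl36al, Rps27l and Rps27rt lay below 0 in both states and were not called (adjusted p of at least 0.0861).

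**Figure D3:**
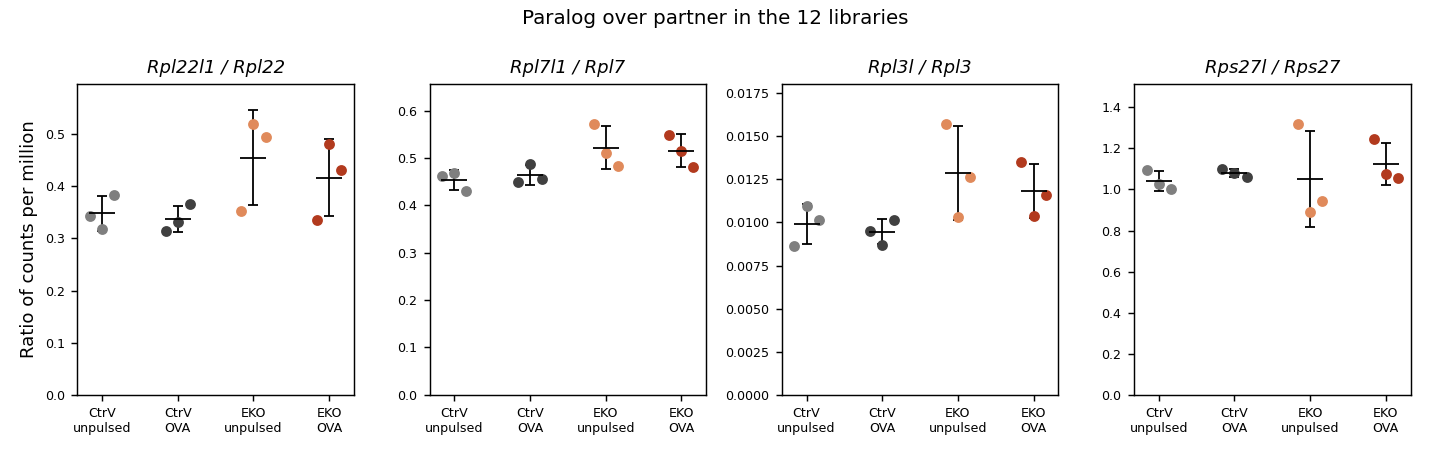
CPM of 4 paralogs divided by that of their partner in the 12 libraries, with points in replicate order and a dash and bar for the mean and SD of 3. For Rpl22l1 over Rpl22, EKO-labelled replicate 1 lies at 0.336 with OVA and 0.352 without, within the CtrV range of 0.315 to 0.384, and the other EKO-labelled libraries lie between 0.432 and 0.519.

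As a whole, the members took up 1.75, 1.75 and 1.81% of all counts in the OVA-pulsed CtrV libraries and 1.47, 1.56 and 1.60% in the EKO-labelled ones. Without OVA the shares were 1.76, 1.73 and 1.99% in CtrV and 1.46, 1.64 and 1.66% in EKO-labelled libraries. On this scale of raw totals all 6 EKO-labelled libraries lay below all 6 CtrV libraries, and within each line the pulsing states overlapped. On the TMM scale of the tests the lines overlapped in the unpulsed state and not with OVA: the median log2 deviation of the members from their own means was -0.16 to 0.02 in the EKO-labelled and -0.00 to 0.23 in the CtrV libraries. EKO-labelled replicate 1 was lowest in both states, and unpulsed CtrV replicate 3 was highest. The same EKO-labelled cultures also differed most from their group over all genes: the chi-square per degree of freedom was 26.2 to 45.3 for pairs with EKO-labelled replicate 1 and 7.50 and 11.8 between replicates 2 and 3. Pair by pair, the median log2 difference of the members between same-numbered libraries was -0.17, -0.07 and -0.08 with OVA and -0.20, -0.02 and -0.21 without. Leaving out replicate 1 of every group, a choice made after seeing the data, left 8 members lower with OVA and 18 without, beside 19.6% and 20.2% of all genes, and 1 member higher without OVA. The medians were -0.08 and -0.10.

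**Figure D4:**
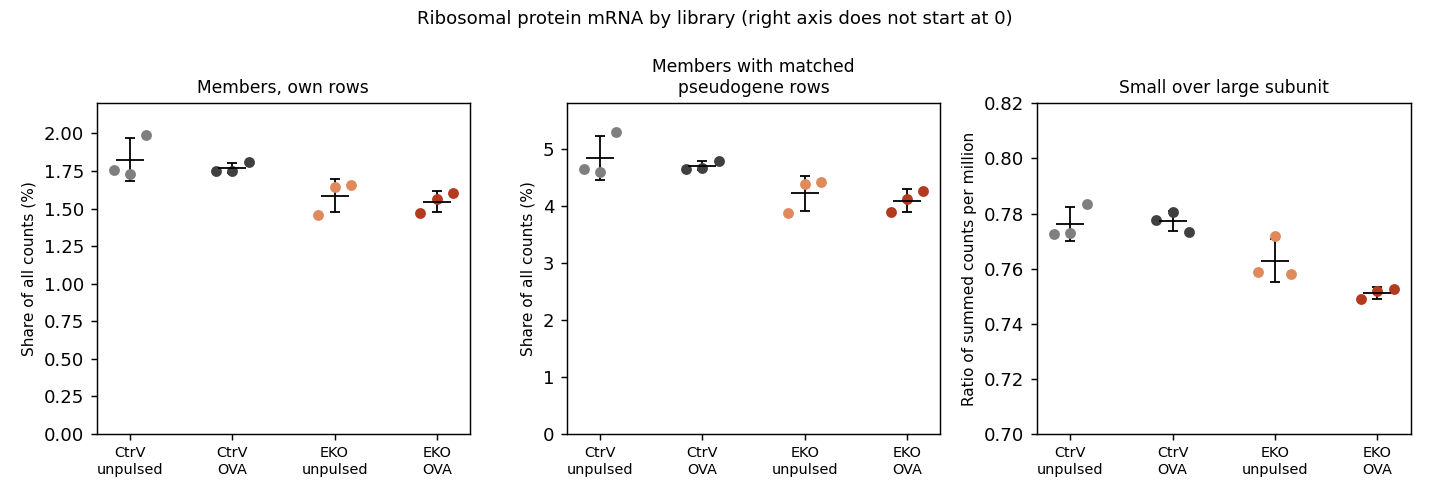
Share of all counts on the 84 members (left), share when matched pseudogene rows are added (middle) and ratio of summed small-subunit to large-subunit CPM (right, axis from 0.70) in the 12 libraries, with the mean and SD of 3. Members take 1.46 to 1.66% in EKO-labelled and 1.73 to 1.99% in CtrV libraries, and 3.87 to 4.41% against 4.59 to 5.29% with the pseudogene rows.

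Reads of these genes were spread over more than the members' own rows. The alignment kept 1 location for a read that matched up to 10 places, so a ribosomal protein read could be counted on a processed pseudogene. When the transcripts of pseudogene rows were compared with those of the members, 1146 rows matched a member at 85% identity or more over at least 50% of their length, and 81 of the 84 members had such a row. These rows held 2.41 to 3.30% of counts, more than the members themselves in every library. The members' rows held 37.6 to 37.8% of the joint total in each library, and the lines overlapped in this split. The median member held 28.6% of the joint counts of its family, and 60 members held less than 50%. At the low end, Rps23 held 1.01% and Rpl28 2.37%, whereas Rpl8 held 99.9% and Rplp1 99.0%. Exons of genes on the opposite strand covered 66.2% of the exon bases of Rpl35 and 59.7% of those of Rpl23a. On the same strand, exons of other genes covered 47.0% of Rpl24 and 35.4% of Rpl13a. Counts on these rows may thus be mixed with those of a neighbour, and other members had smaller overlaps.

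With each family summed, an alternative also chosen after seeing the data, 34 members were called lower with OVA and 34 without, and 0 and 1 higher, against 24.7% and 24.1% of all genes called lower in these fits. The 34 with OVA included all 23 called on their own row, and those without OVA included 26 of the 29. The medians were -0.14 and -0.15. Rpsa fell by 0.42 ± 0.06 with OVA and Rps19 by 0.38 ± 0.06 (adjusted p = 0.000326 and 0.000496). Rps23, whose own row had a log2 fold change of -0.12 ± 0.11 (adjusted p = 0.392), fell by 0.18 ± 0.06 as a family (adjusted p = 0.0293). Rpl5 stayed uncalled, at -0.09 ± 0.06 (adjusted p = 0.234).

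Levels between genes were compared per length, as reads per kilobase of exon union, scaled to library size (RPKM). Means of the 12 libraries ran from 2.15 RPKM for Rpl3l to 728 RPKM for Rplp1, with a median of 70.0 RPKM. After Rplp1 came Rpl4, the conserved protein that lines the peptide exit tunnel, at 679 RPKM, and Rps27rt, a retrogene copy of Rps27, at 618 RPKM. The order depended on the length used: over the longest transcript Rpl4 was first at 886 RPKM, before Rplp1 at 728 and Rpl8 at 676 RPKM, and Rps27rt came after them. Rplp1 was at 770.4 ± 8.91 RPKM (SD, n = 3) in OVA-pulsed CtrV and 679 ± 24.4 RPKM in EKO-labelled cells, and Rpl4 at 704 ± 20.2 and 647 ± 27.3 RPKM. Those levels of Rplp1 and Rpl4 did not differ beyond their spread within the EKO-labelled OVA group. At the other end, Rpl28 was at 4.99 RPKM and Rps23 at 5.23 RPKM, and both are members with most of their family's counts elsewhere. A level on this scale is therefore a level of the member's row and not of all its mRNA. Rps27 and Rps27rt are near-identical, and the share of reads between their rows is uncertain.

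**Figure D5:**
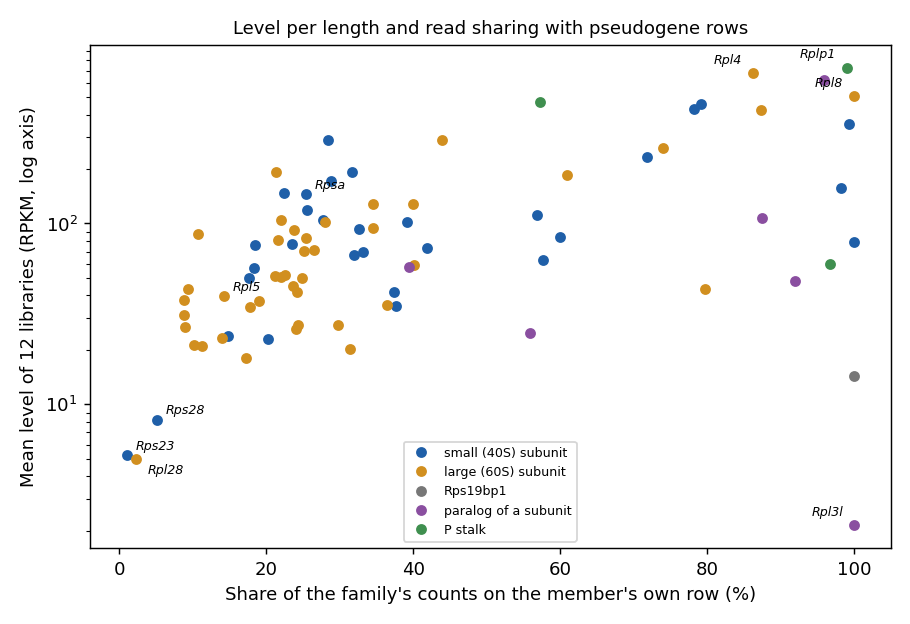
Mean RPKM of 12 libraries (log axis) against the percentage of the family's counts that fell on the member's own row, 1 point per member, coloured by subunit. Rps23, Rpl28 and Rps28, with 1.01, 2.37 and 5.16% of counts on their row, are the lowest of the subunit proteins outside the paralogs, and Rplp1 and Rpl8 are near 100%.

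For OVA pulsing itself 0 members were called, though most lay below 0 in both lines. In CtrV cells, 0 members and 0 of all genes (0%) passed the adjusted threshold in edgeR, DESeq2 and voom. The unadjusted p was under 0.05 for 3 members in edgeR, 1 in DESeq2 and 4 in voom, and for 1.64% of all genes in edgeR. The log2 fold change lay below 0 for 74 of the 84 members (88.1%), against 6820 of 14079 genes. The member median was -0.05, and it was 0.00 for all genes. The pairs differed: the median difference between same-numbered libraries was 0.00, 0.01 and -0.16, the last with the high unpulsed CtrV replicate 3, and without that library the fitted median was -0.00. In that fit 46 members lay below 0. In EKO-labelled cells 0 members and 0% of all genes passed in the 3 tools, 0 members had an unadjusted p under 0.05 in any of them (2.8% of all genes in edgeR), and the member median was -0.03. The pair medians were 0.04, -0.06 and -0.05, and without unpulsed replicate 2 the fitted median turned to 0.02. Below 0 lay 62 members (73.8%), against 6863 of 14079 genes, and 26 members in the fit without that library. A direction shared by most members thus also occurred in comparisons with 0 calls.

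The calls were also counted by start sequence. Over all genes 21.9% were called lower in each state. Of the 38 members with a run, 8 fell with OVA and 14 without, with medians of -0.11 and -0.16. Of the 26 without one, 7 and 7 fell, with medians of -0.11 and -0.11. Among the 25 members with CCGGAAG, 7 and 12 fell, and among the other 39, 8 and 9. The difference between these classes was not tested.

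Most lists of other translation genes held calls in both directions. Their counts stand beside 21.9% of all genes called lower in each state and 25.1% and 24.5% called higher, and a list near these shares shows no more than the background. Outside the name rule, Rack1, a scaffold on the small subunit's head, fell by 0.18 ± 0.07 with OVA (adjusted p = 0.0443), and its unpulsed log2 fold change was -0.12 ± 0.07 (adjusted p = 0.156). Fau, which encodes a small-subunit protein fused to a ubiquitin-like protein, had values of -0.04 and -0.14 that did not pass (adjusted p = 0.605 and 0.0948). Both genes thus lay below 0 in both states, beside the member medians of -0.12 and -0.14.

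Of 10 genes of elongation factors and proteins linked to them, 2 fell and 1 rose in each state. The list medians were -0.09 with OVA and -0.07 without. Below 0 lay 7 of the 10 with OVA and 9 without, against 49.9% and 50% of all genes. With OVA, Eef2k and Eef1d fell and Eef1e1 rose, and of these only Eef1d belongs to an elongation factor. Eef1d fell by 0.29 ± 0.05 and Eef1e1 rose by 0.35 ± 0.06 (adjusted p = 0.000620 and 0.000546). Eef2k, the kinase that inhibits elongation factor 2, had the largest difference of the list and fell by 1.72 ± 0.07 on the log2 scale with OVA (adjusted p = 4.69e-08). Its mean level was 44.3 CPM in OVA-pulsed CtrV and 13.4 CPM in EKO-labelled cells. Among the 13 subunits of initiation factor 3, 2 fell and 4 rose with OVA, with Eif3k down by 0.26 ± 0.05 and Eif3d up by 0.23 ± 0.05 (adjusted p = 0.00206 and 0.00395). The 24 other initiation factors had 11 higher and 1 lower in each state, with medians of 0.12 and 0.06. Eif1, which guards the choice of the start codon, rose by 0.41 ± 0.08, and Eif2s1, the alpha subunit of the factor that brings the initiator tRNA, rose by 0.29 ± 0.05 (adjusted p = 0.00195 and 0.00122).

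Genes that make ribosomes also went both ways. Of 96 biogenesis factors, 10 fell and 19 rose with OVA and 15 fell and 17 rose without, and the median was 0.04 and 0.02. Sbds, which releases Eif6 from new large subunits, rose by 0.53 ± 0.07, and Gnl3, a nucleolar GTPase, by 0.42 ± 0.05 with OVA (adjusted p = 0.000155 and 3.73e-05). Among 15 genes of RNA polymerase I and its factors, 1 fell and 0 rose with OVA (3 at an unadjusted p under 0.05 in edgeR), and 1 fell and 4 rose without. Of 14 chaperones and quality-control genes tested, 4 rose and 0 fell with OVA, and 2 rose and 0 fell without. Heatr3, an import adaptor for Rpl5, rose by 0.81 ± 0.06 with OVA (adjusted p = 3.13e-06).

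Among 27 genes of TOP mRNA regulation and mTORC1, 4 fell and 8 rose with OVA and 4 fell and 9 rose without. Eif4ebp2, a translation repressor under mTORC1, fell by 0.67 ± 0.06, and Pdcd4, an inhibitor of Eif4a, rose by 1.72 ± 0.25 with OVA (adjusted p = 6.87e-06 and 0.000246). In the MYC network, which drives ribosome production in many cells, 4 of 10 genes fell and 1 rose with OVA. Without OVA 4 fell and 2 rose. Mxd3 had the smallest adjusted p of this list with OVA (7.03e-07 in edgeR's test). Its mean level was 24.3 CPM in OVA-pulsed CtrV and 8.61 CPM in EKO-labelled cells. Mxd1 rose by 0.42 ± 0.09 with OVA (adjusted p = 0.00421). The part of this network in the lower ribosomal protein mRNAs was not tested. Myc fell by 0.27 ± 0.08 and 0.32 ± 0.08 in the OVA-pulsed and unpulsed states (adjusted p = 0.0142 and 0.00619), and Mycl fell by 2.03 ± 0.14 with OVA (adjusted p = 1.25e-06). Of 11 noncoding host genes of small nucleolar RNAs, which also carry TOP starts, 1 fell and 2 rose with OVA and 1 fell and 3 rose without.

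The 77 mitochondrial ribosomal proteins, which build the separate ribosome of that organelle, had 13 lower and 15 higher with OVA and 20 lower and 11 higher without. Their medians were -0.02 and -0.03. The summed share of their genes in all counts was 0.226 to 0.263% in CtrV and 0.223 to 0.234% in EKO-labelled libraries, so the lines overlapped there.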

How the data were processed

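For the 12 libraries the authors deposited 1 table of counts, whole reads assigned to genes and not normalized. Per the study's methods, reads were aligned to mm10 with STAR, with up to 10 hits allowed and 1 reported, and featureCounts assigned read 5′ ends to exon unions of Ensembl genes. The processing notes also name SAMtools. The kit kept the strand, and whether the counting used it is not given in the sources used here, so reads of genes on opposite strands may be mixed. Symbols, exon lengths and pseudogene transcripts came from GENCODE for GRCm38, which is not the annotation of the counts, and start sequences came from RefSeq (GRCm38.p6).

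Counts were tested with edgeR 4.0.16 in R 4.3.3: TMM factors, a quasi-likelihood fit of all 12 libraries with group and replicate number as terms, and Benjamini-Hochberg adjustment over the 14079 genes with log2 CPM above 0 in at least 2 libraries. A gene was called at an adjusted p under 0.05 with no fold limit, since the study's text leaves its limits blank. The fit was tested on simulated data. The replicate block follows the study's methods. Deviations of same-numbered libraries correlated across genes at 0.45, 0.30 and 0.30 between the OVA-pulsed lines and at 0.07, -0.01 and 0.27 between the unpulsed ones, so the numbers pair the former and not clearly the latter. DESeq2 1.42.0 and limma 3.58.1 were alternatives. Intervals and floors cover counting error only where depth is concerned.

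The members, gene lists and named-gene rule were chosen with earlier results of these data known. Named were the 5 lowest and highest called members of each line comparison, up to 3 called each way in each pulsing comparison, members called for the dependence on pulsing, the stalk and 5S proteins, Rps6, Rpsa, Rps3, Rpl10, Rpl38, Rps19bp1, paralogs with their partners, the extremes of level per length, and outside the members Siglece, Fau, Rack1 and up to 4 genes per list by p with OVA. Rps23, Rpl8, Rps28, Rps15, Rpl35, Rpl23a, Rpl24 and Rpl13a were named after their values were seen. Pseudogene rows were assigned to the member with the best transcript match, from 4731 rows with at least 12 counts. Protein sequences were not used here, and 1 gene of the lists is not reported here.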

Additional observations from a re-analysis of the deposited data

How the results depend on the processing

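The medians of the members stayed below 0 in both line comparisons under all alternatives run, and 66 members with OVA and 70 without lay below 0 in every one. Counts of called members moved more. With OVA they were 36 with upper-quartile factors, 52 with library totals only, 11 with no replicate block, 10 at an adjusted p under 0.01 and 0 with an absolute log2 fold change of at least 1, beside 23. Without OVA they were 49, 58, 15 with the 6 compared libraries alone, 14 at an adjusted p under 0.01 and 0 with the fold limit, beside 30. The block left the unpulsed count within 1.5 times (20 with no replicate block). With library totals the OVA-pulsed median was -0.18, and all genes shifted by -0.06. Under that scaling 2862 of 7010 genes called with OVA were higher, against 3531 of 6619. Leaving out 1 library gave 10 to 30 called members with OVA and 19 to 43 without, with medians of -0.15 to -0.08 and -0.18 to -0.09, and leaving out replicate 1 of every group gave 8 and 19. With 1 library left out, 17.1 to 23.3% of all genes were called lower with OVA and 17.7 to 22.3% without. For pulsing, 0 members were called without any library, and medians ran from -0.09 to -0.00 in CtrV, from -0.07 to 0.02 in EKO-labelled cells (0.02 without unpulsed EKO-labelled replicate 2) and from -0.02 to 0.06 for the dependence on pulsing. Rpsa, Rps19, Rps18, Rps16, Rps2 and Rps15 were called lower with OVA in every fit that changed tool, scaling, filter or libraries, and 15 members were without OVA. The members' median share of counts was 2.82% with named pseudogenes added and 4.5% with matched rows added. The median level was 109 RPKM over the longest transcript, beside 70.0. The share of starts with a run was 45.3% for runs of at least 7 bases. Every member lay far above the level of 3 counts. The low rows Rpl3l and Rps23 had standard errors of 0.12 and 0.11 with OVA, and depth may limit calls there. Read sharing with pseudogenes limits each single row. With 3 libraries a group, no library was tested as an outlier, and no member's difference depended on pulsing past the threshold.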
